A study of Mus musculus with 4 samples.

Results

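This section describes the RNA of 9 genes that mark or specify progenitor cells of the cerebral cortex in cultures of newborn mouse prefrontal cortex (PFC). They are the SOX genes Sox1, Sox2 and Sox3, the homeobox genes Pax6, Emx1, Emx2 and Lhx2, the T-box gene Eomes, and Nes, which encodes nestin. The genes were taken by name, and all 9 were found among the 55421 genes listed for each library. PFC tissue of wild-type (WT) C57BL/6 mice at postnatal day 0 was dissociated with papain and cultured for 10 days in neurobasal medium with B27 and GlutaMAX supplements, and the medium held FGF2 at 5 ng/mL in one group and no FGF2 in the other. Each of the 4 libraries (2 with FGF2 and 2 without FGF2) was made from the total RNA of a whole culture, with no sorting of cells. The titles number the libraries of a group B1 and B2 without naming separate animals or cultures. The paper describes biological replicates for some of its human samples and technical replicates for others, without naming the mouse libraries. The p-values therefore measure the spread between libraries, which may be technical. The comparison asks which of these genes had another RNA level when FGF2 was in the medium.

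SOXB1 proteins (Sox1, Sox2 and Sox3) bind DNA through an HMG box and keep neuroepithelial cells in a progenitor state. Pax6, Emx2 and Lhx2 pattern the early cortex and regulate its progenitors, called radial glia. Emx1 is restricted to the dorsal forebrain and stays on in cortical excitatory neurons, and Eomes (Tbr2) marks the intermediate progenitors that radial glia give rise to. Nestin is an intermediate filament protein of neural progenitors, and it is also found in reactive astrocytes and in growing blood vessels. Sox2 and Pax6 stay on in many astrocytes after birth, and Sox2 also in oligodendrocyte precursor cells. In the developing forebrain FGF2 is a mitogen of neural progenitors.

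Because the SOXB1 genes are paralogs, as are Emx1 and Emx2, the stretch in which their coding sequences are most alike is shown. It has the length of a single sequencing read (150 bases) and lies in the HMG box of the SOX genes and in the homeobox of the EMX genes. The sequences are read from the transcripts of GENCODE M21 (mm10), written 5′ to 3′ on the coding strand, and the capitals mark the positions at which the paralogs do not share a base. The Sox2 stretch lies at chr3:34650551-34650700, the Sox1 stretch at chr8:12396520-12396669 and the Sox3 stretch at chrX:60892843-60892992 on the minus strand. The Emx2 stretch spans an intron between chr19:59461712-59461846 and chr19:59463880-59463894, and the Emx1 stretch one between chr6:85194088-85194222 and chr6:85203909-85203923.
Sox2: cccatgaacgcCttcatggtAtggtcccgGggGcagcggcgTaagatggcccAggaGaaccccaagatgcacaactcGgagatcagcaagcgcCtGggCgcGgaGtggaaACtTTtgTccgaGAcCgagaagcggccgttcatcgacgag
Sox1: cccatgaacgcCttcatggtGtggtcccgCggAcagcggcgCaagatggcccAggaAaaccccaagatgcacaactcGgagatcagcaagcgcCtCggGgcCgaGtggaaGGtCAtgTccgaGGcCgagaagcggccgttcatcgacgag
Sox3: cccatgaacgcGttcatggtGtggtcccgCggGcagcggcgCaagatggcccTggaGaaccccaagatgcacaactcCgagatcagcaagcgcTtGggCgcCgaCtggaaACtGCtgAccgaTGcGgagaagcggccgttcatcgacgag
Emx2: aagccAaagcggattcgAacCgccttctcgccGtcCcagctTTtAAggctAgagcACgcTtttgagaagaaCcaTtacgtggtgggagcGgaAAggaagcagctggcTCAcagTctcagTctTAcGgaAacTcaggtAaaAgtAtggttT
Emx1: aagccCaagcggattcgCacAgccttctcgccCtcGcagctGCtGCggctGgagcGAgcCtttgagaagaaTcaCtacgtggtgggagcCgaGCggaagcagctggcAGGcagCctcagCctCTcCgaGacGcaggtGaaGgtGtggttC
Even in this stretch Sox2 differed from Sox1 at 13 of 150 bases, Sox2 from Sox3 at 15, Sox1 from Sox3 at 16 and Emx2 from Emx1 at 32. Whole transcripts were also searched for matches of 100 bases or more at 95% identity or more to any other gene, and none was found for the SOXB1 genes, Emx1, Lhx2 and Nes. Pax6 had a match of 127 bases that was 95.3% identical to Unc45a, and Emx2 and Eomes shared 264 and 119 bases with antisense genes that overlap them.

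The counts on genes totalled 9166432 to 10799886 per library, and levels are given as CPM, the TMM-scaled counts relative to the library total. A count of 0 allows up to 3 counts, which is 0.278 to 0.327 CPM in these libraries and covers counting error only. Of the 9 genes, 4 had an adjusted p below 0.05 in the edgeR fit (Benjamini-Hochberg adjustment over all tested genes), where 40.5% of the 17144 tested genes passed. Pax6 and Sox2 rose with FGF2 (20.7% of tested genes were higher), and Nes and Sox1 fell (19.9% were lower). Emx1, Emx2, Sox3, Lhx2 and Eomes did not pass. Both FGF2 libraries were above both others for Sox2, Pax6 and Emx2 (33.6% of tested genes) and below them for Sox1, Nes and Emx1 (33.4%), while Sox3, Lhx2 and Eomes overlapped between the groups. The median log2 fold change was 0.02 over the 9 genes and -0.00082 over all tested genes. The 9 genes thus held changes in both directions, in numbers near the shares of all tested genes.

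**Figure D1:**
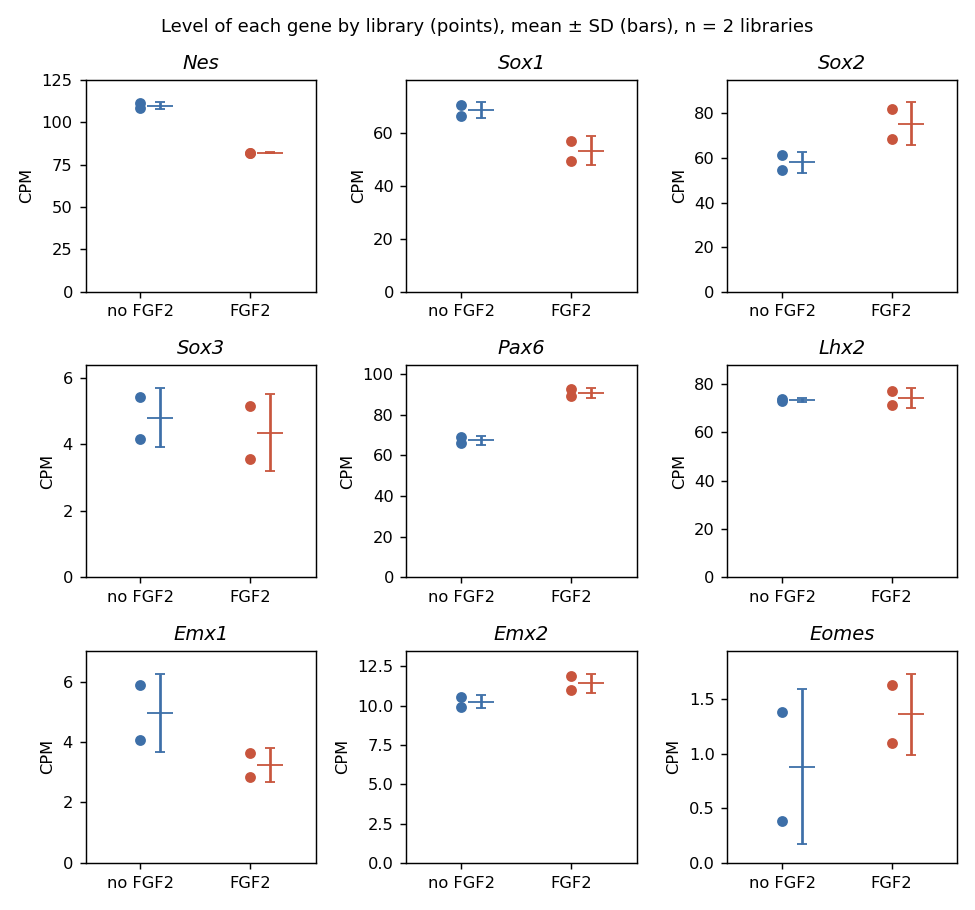
CPM of each of the 9 genes in each library (points), with the mean and SD of the 2 libraries of a group beside them, in cultures without FGF2 (blue) and with FGF2 (red). Each vertical axis starts at 0 and has its own scale. Nes and Sox1 are lower and Sox2 and Pax6 are higher in both FGF2 libraries, and Eomes is below 2 CPM in all 4.

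Nes lies on chromosome 3 of mm10 from 87971078 to 87980451 on the plus strand, and no other annotated gene overlaps it. Its level was 82.2 and 81.9 CPM in the 2 libraries with FGF2 and 108.3 and 111.2 CPM in those without FGF2 (748, 808, 1141 and 1207 counts). The groups did not overlap, and the libraries of each group lay close together. The means were 82.1 ± 0.203 CPM with FGF2 and 109.8 ± 2.04 CPM without FGF2 (SD, n = 2). Nes thus fell by 0.42 on the log2 scale (standard error 0.07, edgeR adjusted p = 5.1e-09), or by 25.2%. In fits that omitted 1 library at a time, its log2 fold change stayed between -0.44 and -0.40. The genes most like Nes over the 4 libraries, by the distance between log2 CPM values centred on each gene's mean, were Arhgap20, Kif21b and Lpgat1. Their distances were 0.01, 0.02 and 0.02 log2 units among 12642 genes of at least 5 CPM, and the likeness over 4 libraries is a description only.

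Sox1 is a single-exon gene on chromosome 8 from 12395295 to 12400126 on the plus strand. It had 56.9 and 49.4 CPM with FGF2 and 66.4 and 70.5 CPM without FGF2, so both FGF2 libraries were lower. Sox1 fell by 0.37 on the log2 scale (standard error 0.08, edgeR adjusted p = 4.3e-05), or by 22.4%. With each library left out its log2 fold change ranged from -0.47 to -0.27. The long noncoding RNA Sox1ot runs over Sox1 on the same strand, but their annotated exons share 0 bases, and a miRNA gene within Sox1 (Gm25239) was at 0 counts in every library. Sox1ot had 53.8 and 52.7 CPM with FGF2 and 67.2 and 75.1 CPM without FGF2, and it fell by 0.42 on the log2 scale (standard error 0.08, edgeR adjusted p = 1.7e-06). Both transcripts of the locus were therefore lower in both FGF2 libraries, and reads from unannotated exons of either could be counted for the other.

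Sox2, also a single-exon gene, lies on chromosome 3 from 34650405 to 34652461 on the plus strand. It had 68.5 and 82.0 CPM with FGF2 and 54.8 and 61.4 CPM without FGF2. The FGF2 libraries were both higher but differed from each other by more than those without FGF2. Sox2 rose by 0.37 on the log2 scale (standard error 0.08, edgeR adjusted p = 1.1e-05), or by 29.7%, and by 0.23 without replicate 2 of the cultures with FGF2 (edgeR adjusted p = 0.041). The noncoding Sox2ot spans Sox2 on the same strand with 0 shared exonic bases. It had 139.4 and 133.4 CPM with FGF2 and 128.2 and 133.9 CPM without FGF2, so its groups overlapped. Its log2 fold change was 0.06 with a 95% interval from -0.06 to 0.17 (edgeR adjusted p = 0.48). Sox2 therefore passed the threshold and the transcript around it did not, although their difference was not tested.

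Sox3, the X-linked SOXB1 gene, lies from 60891366 to 60893430 on the minus strand and was far lower. It had 47 and 35 counts with FGF2 and 44 and 59 counts without FGF2, or 4.36 ± 1.14 and 4.81 ± 0.890 CPM (SD, n = 2). The groups overlapped, and the log2 fold change of -0.15 had a 95% interval from -0.71 to 0.41 (edgeR adjusted p = 0.72), which includes changes of the size seen for Sox1 and Sox2.

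The SOXB1 genes and the EMX genes were also compared within each library, where the scaling cancels. The log2 ratio of Sox2 to Sox1 was 0.27 and 0.73 with FGF2 and -0.28 and -0.20 without FGF2. Sox2 had thus more counts than Sox1 in both FGF2 libraries and fewer in both others. The mean ratio differed by 0.74 (two-sided exact permutation p = 0.333 and 0.444 after adjustment over 4 pairs of paralogs), and 2 libraries in each group allow no smaller p. The ratio of Emx2 to Emx1 was 1.92 and 1.69 with FGF2 and 0.84 and 1.29 without FGF2 on the log2 scale, a difference of 0.74 with the same exact p of 0.333. The ratio of Sox3 to Sox2 differed by -0.52 (exact permutation p = 0.333) and that of Sox3 to Sox1 by 0.22 (exact permutation p = 0.667). Single libraries moved the difference of each of the 4 pairs. For Emx2 over Emx1 the mean with FGF2 was 1.80, against 0.84 and 1.29 in the single libraries without FGF2. For Sox2 over Sox1 the difference was 0.97 or 0.50 without replicate 1 or 2 of the FGF2 group. It was 0.70 or 0.78 without replicate 1 or 2 of the no FGF2 group. Without replicate 1 or 2 of the FGF2 group the difference was -0.92 or -0.12 for Sox3 over Sox2 and 0.05 or 0.38 for Sox3 over Sox1. Without replicate 1 or 2 of the no FGF2 group, that of Sox3 over Sox1 was 0.07 or 0.36. Since this permutation test could not pass the threshold with 2 libraries in each group, the ratios are given as descriptions of the libraries.

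Pax6 lies on chromosome 2 from 105668900 to 105697364 on the plus strand and was the member with the lowest adjusted p among those that rose. It had 92.3 and 89.0 CPM with FGF2 and 65.8 and 68.8 CPM without FGF2, with a clear gap between the groups. Pax6 rose by 0.43 on the log2 scale (standard error 0.07, edgeR adjusted p = 4.3e-08), or by 34.7%. With each library left out its log2 fold change stayed between 0.39 and 0.46. The antisense gene Pax6os1, which overlaps Pax6 by position and shares 0 exonic bases with it, had 8 to 16 counts per library and was not tested.

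Lhx2, a LIM homeobox gene on chromosome 2 from 38339281 to 38369733 on the plus strand, was measured about as deeply as Pax6. It had 71.3 and 77.1 CPM with FGF2 and 73.8 and 72.7 CPM without FGF2, so the FGF2 libraries lay on either side of the others. The log2 fold change was 0.02 with a 95% interval from -0.13 to 0.17 (edgeR adjusted p = 0.87), an interval that holds none of the estimates for Pax6, Sox2, Sox1 and Nes. The antisense genes Gm27197 and Gm13584, which overlap Lhx2 by position, had at most 4 counts in a library.

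Emx1 and Emx2 were lower in level. Emx2, on chromosome 19 from 59458372 to 59465357 on the plus strand, had 100 and 117 counts with FGF2 and 111 and 108 counts without FGF2, or 11.4 ± 0.617 and 10.2 ± 0.415 CPM (SD, n = 2). Its FGF2 libraries were both higher in CPM, but the log2 fold change of 0.16 did not pass the threshold (95% interval from -0.20 to 0.52, edgeR adjusted p = 0.53). Emx2os overlaps 8.79% of the exonic bases of Emx2 on the opposite strand and had 86, 92, 58 and 89 counts in the same order of libraries (log2 fold change 0.45, edgeR adjusted p = 0.076, and 0.76 with adjusted p = 0.030 without replicate 2 of the cultures without FGF2). Emx1, on chromosome 6 from 85187438 to 85204462 on the plus strand, had 2.86 and 3.65 CPM with FGF2 and 5.89 and 4.05 CPM without FGF2. Both FGF2 libraries were lower, and the log2 fold change of -0.60 (95% interval from -1.19 to -0.01) did not pass the threshold (unadjusted p = 0.046, edgeR adjusted p = 0.0998). It was -0.32 without replicate 1 and -0.85 without replicate 2 of the no FGF2 group, so its size rests on single libraries. By the same distance as for Nes, the genes most like Emx1 were Tmem191c, Ubap1l and Stk32c, at 0.13 to 0.15 log2 units.

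Eomes, on chromosome 9 from 118478212 to 118486132 on the plus strand, was close to the limit of detection. It had 10 and 16 counts with FGF2 and 4 and 15 counts without FGF2. The exact 95% Poisson interval of the lowest count runs from 1.09 to 10.2 and covers counting error only. The log2 fold change of 0.62 had a 95% interval from -0.50 to 1.73 (edgeR adjusted p = 0.42). No change and a rise of 2-fold both lie inside this interval, so neither could be excluded at this depth. The log2 fold change was -0.02 when replicate 1 of the no FGF2 group was left out and 1.81 when its replicate 2 was. The genes most like Eomes were Lrig3, Rel and Vsig10l, at distances of 0.77 to 0.84 log2 units, far larger than those for Nes. The antisense gene Gm33460 had at most 1 count in a library.

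**Figure D2:**
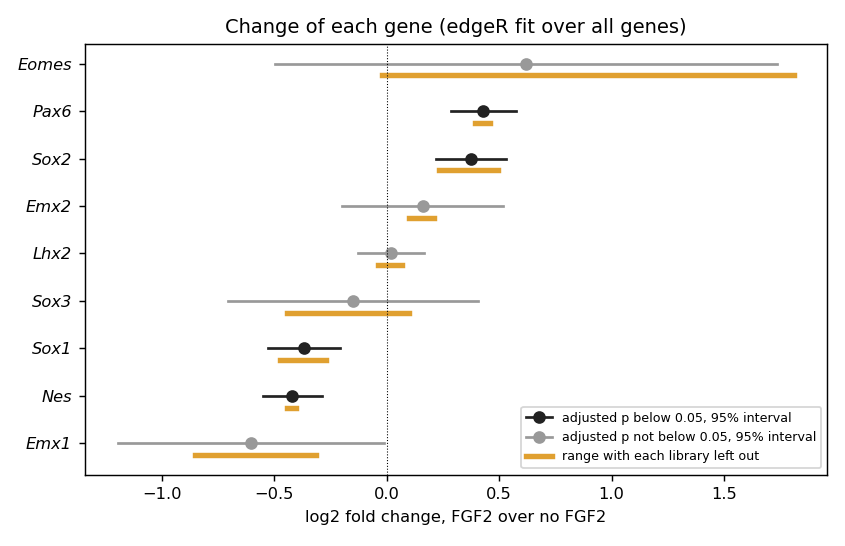
Log2 fold change of each gene with FGF2 over no FGF2 from the edgeR fit (points), its 95% interval (thin lines) and the range over fits that each left out 1 library (orange lines). Black marks genes with an adjusted p below 0.05. The intervals of Pax6 and Sox2 lie above 0 and those of Nes and Sox1 below 0, while the interval of Eomes spans from -0.50 to 1.73.

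To compare the genes with each other, CPM were divided by the length of all annotated exons of a gene, as CPM per kb. Sox2 had the highest level per length in both groups, with 36.6 ± 4.66 CPM per kb with FGF2 and 28.2 ± 2.29 without FGF2 (SD, n = 2). Without FGF2 it was followed by Nes (17.1 ± 0.318 CPM per kb), Lhx2 (16.7 ± 0.173), Sox1 (14.2 ± 0.603), Pax6 (5.76 ± 0.183), Emx2 (3.41 ± 0.138), Sox3 (2.33 ± 0.431), Emx1 (2.28 ± 0.593) and Eomes (0.212 ± 0.171). With FGF2 the level of Lhx2 (16.9 ± 0.922 CPM per kb) was above that of Nes (12.8 ± 0.0317), and the rest of the order was as without FGF2. Of the neighbours in these orders, Sox3 and Emx1 overlapped between libraries without FGF2. The other neighbours did not overlap, although Nes and Lhx2 differed by a ratio of only 1.03 without FGF2. The place of Pax6 depended on the length used, because its 16 exon blocks sum to 11694 bases and its longest transcript has 4427 bases. Per length of the longest transcript, Pax6 had 20.5 CPM per kb with FGF2, above Nes (13.4) and Sox1. Without FGF2 it had 15.2 CPM per kb, below Nes (17.9) and above Sox1 (14.2). Emx1 (3.18 CPM per kb) was then above Sox3 (2.33) without FGF2, whereas with FGF2 Sox3 (2.11) stayed just above Emx1 (2.08).

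**Figure D3:**
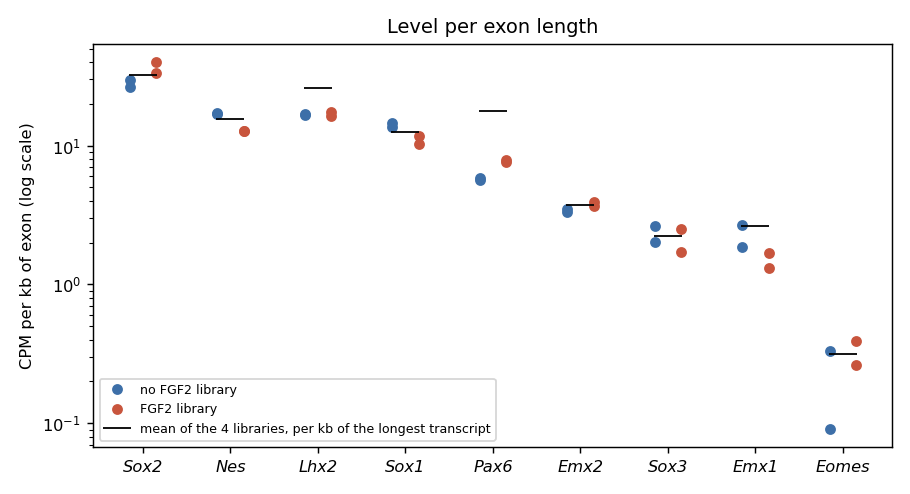
Level of each gene in CPM per kb of exon on a log axis, for each library without FGF2 (blue) and with FGF2 (red), ordered by the mean without FGF2. The black bars give the mean of the 4 libraries per kb of the longest transcript, which is well above the points for Pax6 (17.8 CPM per kb) and for Lhx2 (26.0 CPM per kb).

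The start regions of Sox2 and Pax6, which rose, and of Nes, which fell, are shown to give the sequence of these genes. They are RefSeq sequences of GRCm38.p6 on the plus strand, ending before the first transcript base that RefSeq or GENCODE annotates. The Sox2 region is chr3:34649745-34649994, the Pax6 region, at the first of 2 RefSeq starts, is chr2:105668646-105668895 and the Nes region is chr3:87970843-87971077. Capitals mark a match, on either strand, to a SOX motif (ACAAAG), an ETS core (CCGGAA) or an E-box (CANNTG).
Sox2: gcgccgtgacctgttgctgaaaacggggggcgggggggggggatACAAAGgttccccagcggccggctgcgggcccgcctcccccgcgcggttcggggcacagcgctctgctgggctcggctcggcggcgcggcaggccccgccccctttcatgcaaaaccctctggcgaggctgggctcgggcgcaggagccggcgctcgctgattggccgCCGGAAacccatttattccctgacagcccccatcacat
Pax6: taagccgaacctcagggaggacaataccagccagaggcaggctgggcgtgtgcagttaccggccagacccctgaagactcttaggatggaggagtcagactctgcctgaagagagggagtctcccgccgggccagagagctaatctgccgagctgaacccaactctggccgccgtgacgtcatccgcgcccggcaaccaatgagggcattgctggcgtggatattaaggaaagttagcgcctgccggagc
Nes: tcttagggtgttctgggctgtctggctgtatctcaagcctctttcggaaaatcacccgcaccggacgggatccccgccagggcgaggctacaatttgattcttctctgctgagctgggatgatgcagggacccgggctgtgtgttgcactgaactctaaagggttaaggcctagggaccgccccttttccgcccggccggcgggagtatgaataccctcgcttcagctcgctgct
The printed Sox2 region held 1 SOX motif and 1 ETS core, which do not overlap each other, and the printed Pax6 and Nes regions held none of these letters. In windows of 300 bases, which reach 50 bases past the start, Sox2 also had 1 E-box, while Nes and the first start of Pax6 again had none. The window at the other Pax6 start had 1 SOX motif and 1 E-box. Over 32851 windows of 300 bases around mouse gene starts, 18.7% held the SOX motif, 14.9% the ETS core and 72.3% the E-box. These are matches of letters and do not show binding.

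The 9 genes were set beside lists of related genes. Of all tested genes 20.7% rose and 19.9% fell in the same fit, and the counts of these lists and of the marker lists stand beside those shares. Of 15 further genes of radial glia, 10 rose, 3 fell and 2 did not pass, with a median log2 fold change of 0.27. Vim (vimentin), another intermediate filament of radial glia and of astrocytes, rose from 671.8 ± 13.6 CPM without FGF2 to 1571 ± 6.96 CPM with FGF2 (SD, n = 2), or 2.34-fold. Prom1, a membrane protein of neural stem cells, rose by 0.79 on the log2 scale (edgeR adjusted p = 3.0e-16). Hopx fell by 1.02 and Tnc, which encodes the matrix protein tenascin C, fell by 0.67 on the log2 scale (edgeR adjusted p = 5.2e-11 and 1.2e-29). Radial glia genes thus went both ways but mostly rose, while 2 of the 9 members rose and 2 fell.

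Among 10 other intermediate filament genes, 8 were tested, of which 3 rose, 2 fell and 3 did not pass. Gfap, the filament protein of astrocytes, had 5777 ± 214.5 CPM with FGF2 and 2768 ± 7.76 CPM without FGF2 (SD, n = 2), 2.09-fold higher. Synm, which encodes the filament protein synemin, fell by 0.71 on the log2 scale (edgeR adjusted p = 2.7e-07), and the neuronal filament gene Ina fell by 0.58. Other neuronal filament genes did not fall with Ina. Nefl rose by 0.38 (edgeR adjusted p = 0.0014), and Nefm and Nefh did not pass (edgeR adjusted p = 0.91 and 0.71). Nes and Synm were thus lower in the FGF2 libraries in which Vim and Gfap were higher.

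Of 11 other intermediate progenitor and neurogenic genes, 8 were tested, with 3 higher, 1 lower and 4 not past the threshold, and a median of 0.39. Btg2, an antiproliferative gene of neurogenic divisions, rose by 0.65 on the log2 scale (edgeR adjusted p = 5.0e-06), and by 0.42 without replicate 2 of the no FGF2 group (edgeR adjusted p = 0.033). Neurog1 was listed at 0 counts in every library and Neurog2 at 1 to 7, so these neurogenic factors were near the limit of detection, as Eomes was. DESeq2 and the edgeR fit without replicate 2 of the FGF2 group each called 2 genes of this list, both higher. Of 12 further forebrain patterning factors, 10 were tested, of which 0 rose and 4 fell by edgeR. The number called in either direction was near the share of all tested genes (40.5%). Their median was -0.27. At an unadjusted edgeR p below 0.05, 0 of the 10 were higher as well, and DESeq2 called 0 higher and 2 lower. Nr2f2 fell by 0.51 and Sp8, which patterns the frontal cortex, by 0.39 on the log2 scale, but with DESeq2 neither passed (adjusted p = 0.18 and 0.078). Nr2f2 also did not pass without replicate 1 of the FGF2 group (log2 fold change -0.34) or without replicate 2 of the no FGF2 group (-0.46).

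Of 16 SOX genes outside SOXB1, 11 were tested, of which 6 rose, 1 fell and 4 did not pass, with a median of 0.17. Sox7 rose by 2.76 and Sox10, a factor of the oligodendrocyte lineage, by 2.41 on the log2 scale (edgeR adjusted p = 2.0e-26 and 3.2e-185). Sox11 fell by 0.25 (edgeR adjusted p = 6.9e-07), whereas Sox4, at a similar level, rose by 0.17 (edgeR adjusted p = 6.5e-04). Of 10 ventral forebrain factors, 2 rose, 7 fell and 1 did not pass, with a median of -0.55. The interneuron factors Lhx6 and Dlx6 fell by 1.51 and 0.65 on the log2 scale, and Dlx6 did not pass with DESeq2 (adjusted p = 0.24). Dlx6 was at -0.56 without replicate 2 of the FGF2 group and at -0.59 and -0.71 without replicates 1 and 2 of the no FGF2 group, past the threshold in none of these fits. DESeq2 called 4 genes of the ventral list, and edgeR called 5 without replicate 2 of the FGF2 group. Of 8 cell cycle genes, 7 fell and Mki67 did not pass (log2 fold change -0.10, edgeR adjusted p = 0.33), with a median of -0.66. Aurkb fell by 1.28 and Bub1 by 0.84, the latter not past the threshold with DESeq2 (adjusted p = 0.13), which called 4 of the 8. Bub1 was at -0.64 both without replicate 2 of the FGF2 group and without replicate 1 of the no FGF2 group, and passed in neither fit.

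**Figure D4:**
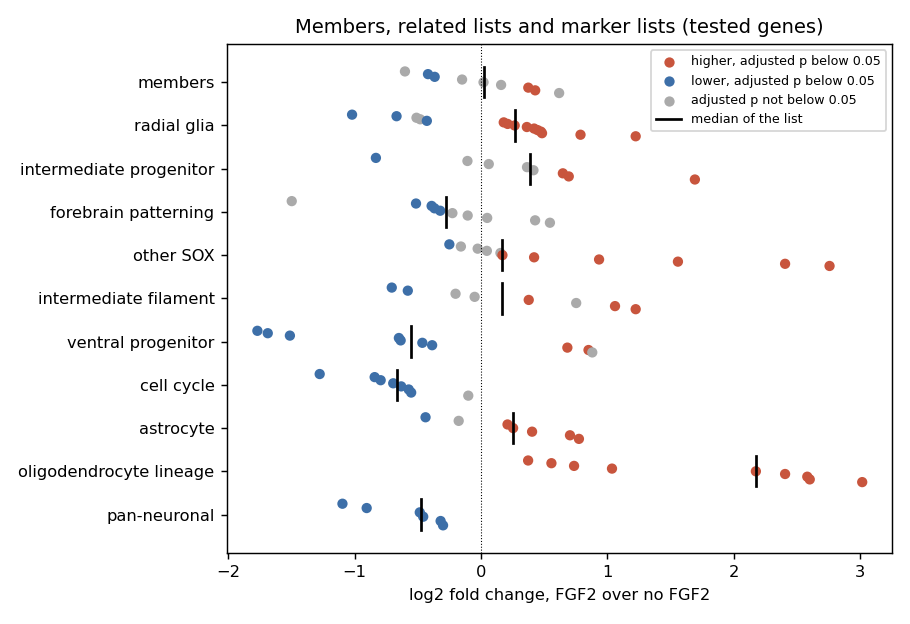
Log2 fold change with FGF2 over no FGF2 of each tested gene, by list, with the list median as a black bar. Red and blue points passed an adjusted p of 0.05 in the edgeR fit and grey points did not. The 9 member genes lie between -0.60 and 0.62, whereas the oligodendrocyte lineage list lies between 0.37 and 3.02.

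Several members are also made by cells other than progenitors, and markers of those cells moved between the same libraries. The summed level of 8 astrocyte markers was 4075 to 4117 CPM with FGF2 and 2973 to 2988 CPM without FGF2, with 5 higher and 1 lower of 7 tested. Of 10 oligodendrocyte lineage markers, 9 were tested and 9 rose, and their sum was 1830 to 1863 CPM with FGF2 and 535.5 to 542.3 CPM without FGF2. The 6 pan-neuronal markers all fell, from a sum of 3250 to 3254 CPM without FGF2 to 2342 to 2394 CPM with FGF2. Excitatory neuron markers fell for 3 of 6 tested, with a sum of 277.6 to 283.4 CPM with FGF2 and 386.6 to 397.7 CPM without FGF2, and inhibitory neuron markers for 4 of 4, with 458.8 to 479.4 and 803.6 to 817.6 CPM. Sox2 and Pax6 thus moved in the direction of the astrocyte and oligodendrocyte sums, and Nes and Sox1 in the direction of the neuronal and cell cycle genes. The part of these cells in the changes of the members was not tested.

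Nestin is also made in blood vessels, and their part in the level of Nes was not tested. Of 5 endothelial markers, Cldn5 was listed at 0 counts in every library and the sum of all 5 was 7.40 to 9.67 CPM with FGF2 and 4.94 to 8.01 CPM without FGF2 (1 higher and 1 lower of 3 tested). The 7 mural and fibroblast markers summed to 62.8 to 66.2 CPM with FGF2 and 50.1 to 51.8 CPM without FGF2, with 2 higher and 2 lower of 6 tested. Microglia markers summed to 9.78 to 10.1 CPM with FGF2 and 4.24 to 4.27 CPM without FGF2, with 2 higher of 2 tested, and Tmem119 was at 0 to 4 counts. Of 4 ependymal markers, 3 fell and Foxj1 did not pass, and their sum was 166.5 to 185.5 CPM with FGF2 and 185.6 to 187.6 CPM without FGF2. In whole cultures, fewer cells of a type and less RNA per cell cannot be told apart for any of these genes.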

How the data were processed

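Reads were mapped to mm10 by the authors using HISAT2 2.1.0, filtered with Samtools for a mapping quality of at least 20 and counted per gene using HTSeq 0.11.2. The deposited values are raw counts, not normalized, for 4 libraries. The annotation release and the strand setting are not given in the sources used here. From the values the strands were kept apart, since a count was present for 4 of 670 genes whose exons lie at least 98% within those of a same-strand gene and for 161 of 472 within those of an opposite-strand gene. The mapping quality filter can lower the counts of genes with near-identical copies.

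Gene names, coordinates and exon lengths were taken from GENCODE M21, which matched 55240 of 55421 identifiers. The 5 tally entries, which name no gene, were left out of library totals (43.2% to 45.9% of read pairs were in no feature and 1.47% to 1.76% were ambiguous). Transcripts of the members were aligned to those of other genes with BLAST 2.17.0. Groups were compared by quasi-likelihood tests in edgeR 4.0.16 (R 4.3.3) with TMM scaling (factors 0.992 to 1.01), the expression filter of edgeR by group, robust estimation and Benjamini-Hochberg adjustment over 17144 genes. The fits were tested on simulated counts with 200 changed genes, fewer than the 6949 genes that passed in the data. Replicates differed by more than sampling noise (chi-square per degree of freedom 2.28 with FGF2 and 1.76 without FGF2) and were kept apart.

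Settings varied one at a time were the scaling (RLE, upper quartile, total count), the filter (none, or a minimum of 10 counts in each library), the tool (DESeq2 1.42.0, limma-voom in limma 3.58.1), the replicate number as a block, each library left out, a prior count of 2 in place of 0.5 for paralog ratios, and the longest transcript as gene length. The members, lists and tests were chosen with earlier results of these data known, so the lists give no independent support. The text names the members, the genes that overlap them, up to 2 genes with the largest rise and 2 with the largest fall of each related list (adjusted p below 0.05, mean of at least 5 CPM), and the 3 genes nearest to Nes and to the members with the highest and the lowest log2 fold change (at least 5 CPM and a count in every library). Mki67, Neurog1, Neurog2, Sox4, Nefl, Nefm and Nefh were named after their values were seen. A gene picked by the rule is not reported here.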

Additional observations from a re-analysis of the deposited data

How the results depend on the processing

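The 4 members that passed the threshold passed it in the same direction under every alternative. With DESeq2 the adjusted p was 1.1e-04 for Nes, 0.00049 for Pax6 and 0.019 for both Sox1 and Sox2, and 4007 of all genes passed in place of 6949. The members that did not pass did not do so under any alternative, but some changed sign. Lhx2 was at -0.0058 with upper quartile scaling. With a library left out the log2 fold change ranged from -0.0403 to 0.0701 for Lhx2, from -0.44 to 0.10 for Sox3 and from -0.0193 to 1.81 for Eomes. Per length of the longest transcript, the mean level over the 4 libraries was 17.8 CPM per kb for Pax6, 2.63 for Emx1, 26.0 for Lhx2 and 15.7 for Nes, in place of 6.75, 1.88, 16.8 and 14.9. With at least 10 counts in every library Eomes gave no value.

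With the replicate number as a block, 6814 genes, the same number of members (4) and 47 genes of the related lists passed. The deviations of same-numbered libraries had a correlation of 0.0046 over genes and the titles do not state what the numbers mean, so the numbers were not taken as pairs. In this balanced design a block cannot move a difference of group means such as that of the paralog ratios.

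With a library left out, 5213 to 6199 genes and 39 to 41 genes of the related lists passed, in fits of fewer libraries in which the lone library of a group was assumed to vary like the others. Rel and Vsig10l no longer passed without replicate 1 of no FGF2, nor did Tmem191c, which also missed without replicate 1 of FGF2 and with DESeq2 (adjusted p = 0.11). With about 10 counts in a library, as for Eomes, depth limits what can be detected.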
